A study of Mus musculus with 4 samples.

Results

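The genes of the BCL2 family decide whether a cell passes into mitochondrial apoptosis. The family was followed here in mouse myeloid-derived suppressor cells of the granulocytic kind (G-MDSC; 2 samples) and in neutrophils (2 samples), each measured on 1 Affymetrix expression array. Members were chosen by name, as every probe set annotated with a single gene symbol among Bcl2, Bcl2l1, Mcl1, Bax, Bak1, Bcl2l11, Bad, Bid, Bbc3 and Pmaip1. This gave 29 probe sets for 9 of the 10 genes, out of 18193 genes with such a probe set. Bax had no probe set with a single symbol in the annotation used, so its level was not analysed here.

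All samples came from female C57BL/6 mice, and no transgene or deletion is named in the labels. G-MDSC are immature relatives of neutrophils that build up in animals with tumours and restrain T cells. They were defined as CD11b+Ly6G+Ly6Clow and isolated from spleen with Ly6G microbeads, 3.5 weeks after subcutaneous injection of EL4, a mouse lymphoma line. Neutrophils were recovered from the peritoneal cavity 3 h after the last of 2 injections of 1.5 ml of 12% casein spaced 16 h apart, with depletion of F4/80-positive cells before selection on Ly6G. Red blood cells were lysed in both. The cell kinds therefore also differ in tissue, in what the mice received and in the selection steps, and these cannot be told apart. Nothing in the labels tells whether the replicates of a group were separate mice. The p-values therefore rest on the spread among these samples alone, and that spread may be technical.

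The BCL2 family works as a balance of binding partners on the outer mitochondrial membrane. Anti-apoptotic proteins (BCL2, BCL-XL, MCL1) hold the effectors BAX and BAK in check. BH3-only proteins (BIM, BAD, BID, PUMA, NOXA) bind the anti-apoptotic proteins or activate the effectors, and active effectors open the membrane and release cytochrome c. Neutrophils are short-lived cells whose survival is known to rest heavily on MCL1, and BIM is a main driver of their turnover.

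The arrays were similar in scale but not in their low signals. The 40th percentile of signal was 133 in neutrophils replicate 2 and 45.7 to 52.6 in the other 3 arrays. A gene was tested where its signal lay above that percentile of the array in at least 2 of 4 arrays, on the log2(signal + 16) scale. The scale understates changes of dim genes. Every difference is given as the G-MDSC mean minus the neutrophil mean, from a limma fit over 13139 genes, and a gene was called where its Benjamini-Hochberg adjusted p was under 0.05. Each SE is that of the limma fit, moderated across all genes or probe sets tested. It is not the spread of the 2 arrays of a group alone. The median gene differed by -0.18 as deposited, by 0.04 after quantile normalization and by 0.42 after scaling the arrays to 1 median. With median scaling 913 genes were called higher and 396 lower, against 1091 and 1058 as deposited. Markers that define neutrophils had summed signals of 199861 and 250714 in the G-MDSC arrays and 200548 and 253862 in the neutrophil arrays over 8 tested genes, with S100a8 and S100a9 contributing most. Of all 13139 genes, 8.3% were called higher in G-MDSC and 8.05% lower, and 3890 had an unadjusted p under 0.05 in limma. Of the 8 markers, 1 was called higher in G-MDSC and 0 lower, with 3 higher and 0 lower at an unadjusted p under 0.05 in limma. The 1 called was the chemokine receptor Cxcr2 (1.24, adjusted p = 0.0291), or 0.96 without G-MDSC replicate 2 (adjusted p = 0.308). Ly6g, the antigen of the selection, was not analysed here.

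Of the 9 members tested, 1 was called higher in G-MDSC, where 8.3% of all genes were, and 0 were called lower, where 8.05% of all genes were. The gene called higher was Bid. At an unadjusted p under 0.05 in limma there were 2 of the 9 members, Bid and Bcl2l11, and 3890 of the 13139 genes. The groups did not overlap, with G-MDSC higher, for 3 members (Bid, Bad and Pmaip1), and with G-MDSC lower for 3 (Bcl2l11, Bcl2l1 and Bcl2). The shares of all genes were 27.3% and 32.2%, or 59.5% in either direction. All 9 members passed the filter, and their median difference was -0.16 against -0.18 for all genes tested. The family as a whole was therefore near the background, and these counts are no result about the family. Its genes are described singly below. In RNA of sorted cells in bulk, fewer cells of a type and less RNA per cell cannot be told apart.

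**Figure D1:**
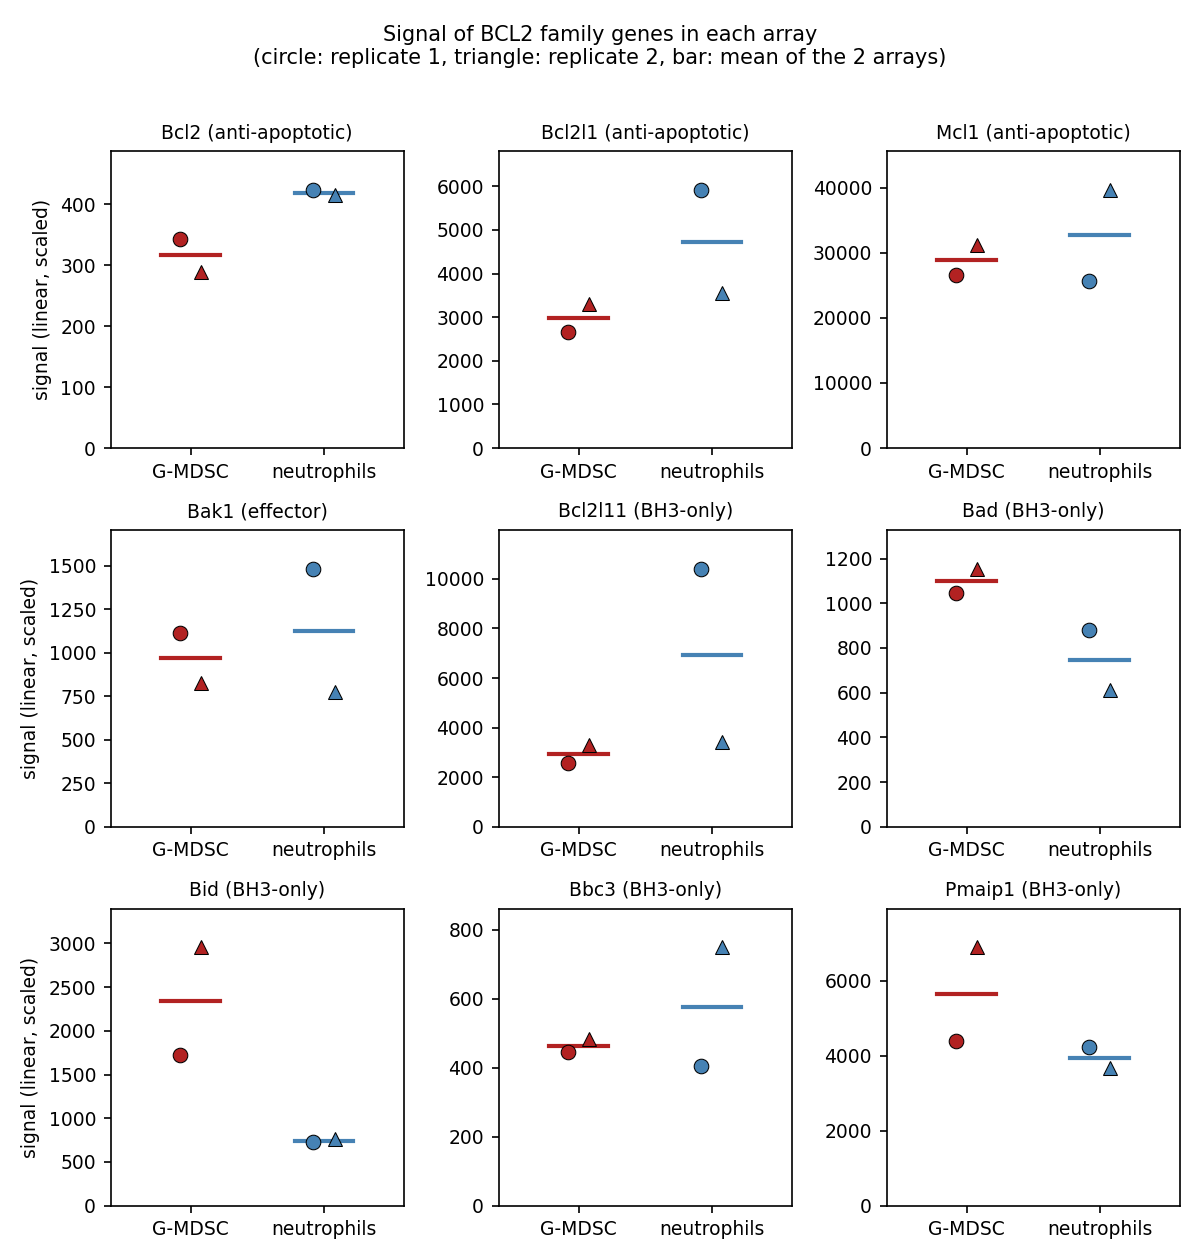
Linear signal of the 9 measured BCL2 family genes (y axis, from 0) in G-MDSC (red) and neutrophils (blue), 1 panel per gene at its brightest probe set, with a circle for replicate 1, a triangle for replicate 2 and a bar at the mean of the 2 arrays. The Bid panel has 1719 and 2954 in the G-MDSC arrays, against 728 and 758 in the neutrophil arrays, while Mcl1, Bak1 and Bbc3 overlap.

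Bid encodes the BH3-only protein that caspase 8 cleaves, linking death receptors to mitochondria. Its signal was 1719 and 2954 in the G-MDSC arrays and 728 and 758 in the neutrophil arrays. Both G-MDSC arrays lay above both neutrophil arrays. Bid was 2.99-fold higher in G-MDSC, a log2 difference of 1.58 ± 0.34 (moderated SE, 2 arrays per group, limma adjusted p = 0.00979). The difference was 1.22 between the replicate 1 arrays and 1.94 between the replicate 2 arrays. Bid ranked 1613th of 13139 genes by size of difference.

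The Bid call depended on the fit. Without G-MDSC replicate 2, the brightest array for Bid, the difference was 1.19 and was not called (limma adjusted p = 0.207). It was also not called with median scaling (2.21, adjusted p = 0.0801), without the intensity trend (adjusted p = 0.0884) or without moderation across genes (adjusted p = 0.279).

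The other 2 Bid probe sets pointed the same way. At 1447873_x_at the signal was 399 and 299 in the G-MDSC arrays and 154 and 75.3 in the neutrophil arrays. At 1448560_at it was 146 and 284 in the G-MDSC arrays and 77.0 and 25.3 in the neutrophil arrays, with both neutrophil replicate 2 values below the 40th percentile of that array. Their log2 differences were 1.54 ± 0.49 and 1.83 ± 0.67 (moderated SE, n = 2 per group). Neither was called when every one of the 28754 kept probe sets was tested as its own feature (limma adjusted p = 0.0977 and 0.141), whereas 1417045_at, the brightest, was (adjusted p = 0.0311, or 0.335 without G-MDSC replicate 2). All 3 Bid probe sets separated the groups, with G-MDSC higher. They rest on 2 source sequences, so they are not independent. With median scaling 1447873_x_at was called (limma adjusted p = 0.0357) and 1417045_at was not (0.158).

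The promoter of Bid is shown because Bid was the member called in the fit over genes. The window runs from 250 bases before to 50 bases after the RefSeq start, on the minus strand of chr6:120916775-120917074 (GRCm38.p6). Capitals mark GC boxes (GGGCGG), which occurred 3 times in this window.
Bid: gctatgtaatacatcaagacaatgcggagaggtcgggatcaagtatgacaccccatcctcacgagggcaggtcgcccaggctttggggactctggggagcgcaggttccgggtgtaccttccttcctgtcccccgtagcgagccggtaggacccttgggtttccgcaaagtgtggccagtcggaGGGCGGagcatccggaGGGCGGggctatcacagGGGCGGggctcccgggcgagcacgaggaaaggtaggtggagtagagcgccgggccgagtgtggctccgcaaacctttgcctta
A GC box on either strand was found in 35.7% of 32851 promoter windows of this length, and in 10 of the 15 windows of the family. The windows of the family had a median GC content of 65.7%, against 52.7% over all windows.

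Bcl2l11 encodes BIM, the BH3-only protein that binds all anti-apoptotic family members and that growth factors hold down in granulocytes. At its brightest probe set, 1456005_a_at, the signal was 2567 and 3288 in the G-MDSC arrays and 10413 and 3435 in the neutrophil arrays. The groups did not overlap, but neutrophils replicate 2 lay next to the G-MDSC arrays. The log2 difference was -1.04 ± 0.45 (moderated SE, 2 arrays per group, limma adjusted p = 0.15) and the gene was not called. It was -2.01 between the replicate 1 arrays and -0.06 between the replicate 2 arrays. Without neutrophils replicate 2 the difference was -1.84 and called (adjusted p = 1.02e-07). Without neutrophils replicate 1 it was -0.24 and not called (adjusted p = 0.533).

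The 4 other probe sets of Bcl2l11 gave larger gaps in neutrophils replicate 2. The signal of 1426334_a_at was 78.8 and 184 in the G-MDSC arrays and 1302 and 962 in the neutrophil arrays. That of 1456006_at was 413 and 528 in the G-MDSC arrays and 2408 and 1023 in the neutrophil arrays. That of 1435449_at was 714 and 966 in the G-MDSC arrays and 2282 and 1833 in the neutrophil arrays. In each of these both neutrophil arrays stood above both G-MDSC arrays. That of 1435448_at was 1742 and 2131 in the G-MDSC arrays and 5749 and 2567 in the neutrophil arrays, again with replicate 2 close to the G-MDSC arrays.

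When every probe set was tested as its own feature, 3 of the 28 kept probe sets of the family were called lower in G-MDSC, where 4.31% of all kept probe sets were. All 3 belonged to Bcl2l11. On the log2 scale the difference was -3.04 ± 0.46 at 1426334_a_at (moderated SE, 2 arrays per group, limma adjusted p = 0.00645), -1.72 ± 0.44 at 1456006_at (adjusted p = 0.0476) and -1.28 ± 0.33 at 1435449_at (adjusted p = 0.0485). It was -0.99 ± 0.41 at 1435448_at (adjusted p = 0.188). The call of 1426334_a_at was kept when each array was left out in turn (differences from -3.58 to -2.51) and with median scaling (-2.46, adjusted p = 0.0346), and was lost without the intensity trend (adjusted p = 0.069) and without moderation (0.317). The other 2 calls lay close to the threshold. Without G-MDSC replicate 1, 1456006_at was not called (adjusted p = 0.109) and neither was 1435449_at (0.385). Without G-MDSC replicate 2, 1435449_at was not called (0.116). Neither of these 2 was called with quantile normalization (0.0736 and 0.0629) or with median scaling (0.524 and 0.735). The 5 probe sets rest on 3 source sequences, so they are not independent. With the median of the 5 probe sets standing for the gene, Bcl2l11 was called lower (-1.32, adjusted p = 0.0157).

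In the same fit 1 of the 28 probe sets, of Bid, was called higher, where 3.72% of all kept probe sets were, or 8.03% in either direction. The groups did not overlap with G-MDSC higher at 7 probe sets of the family, and with G-MDSC lower at 11, where the shares of all kept probe sets were 23.7% and 30.8% (54.6% in either direction). All 5 probe sets of Bcl2l11 were among the 11. The probe set left out by the filter, 1426050_at of Bcl2l1, was at 28.9 and 5.75 in the G-MDSC arrays and 9.76 and 90.5 in the neutrophil arrays, below the 40th percentile of every array.

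**Figure D2:**
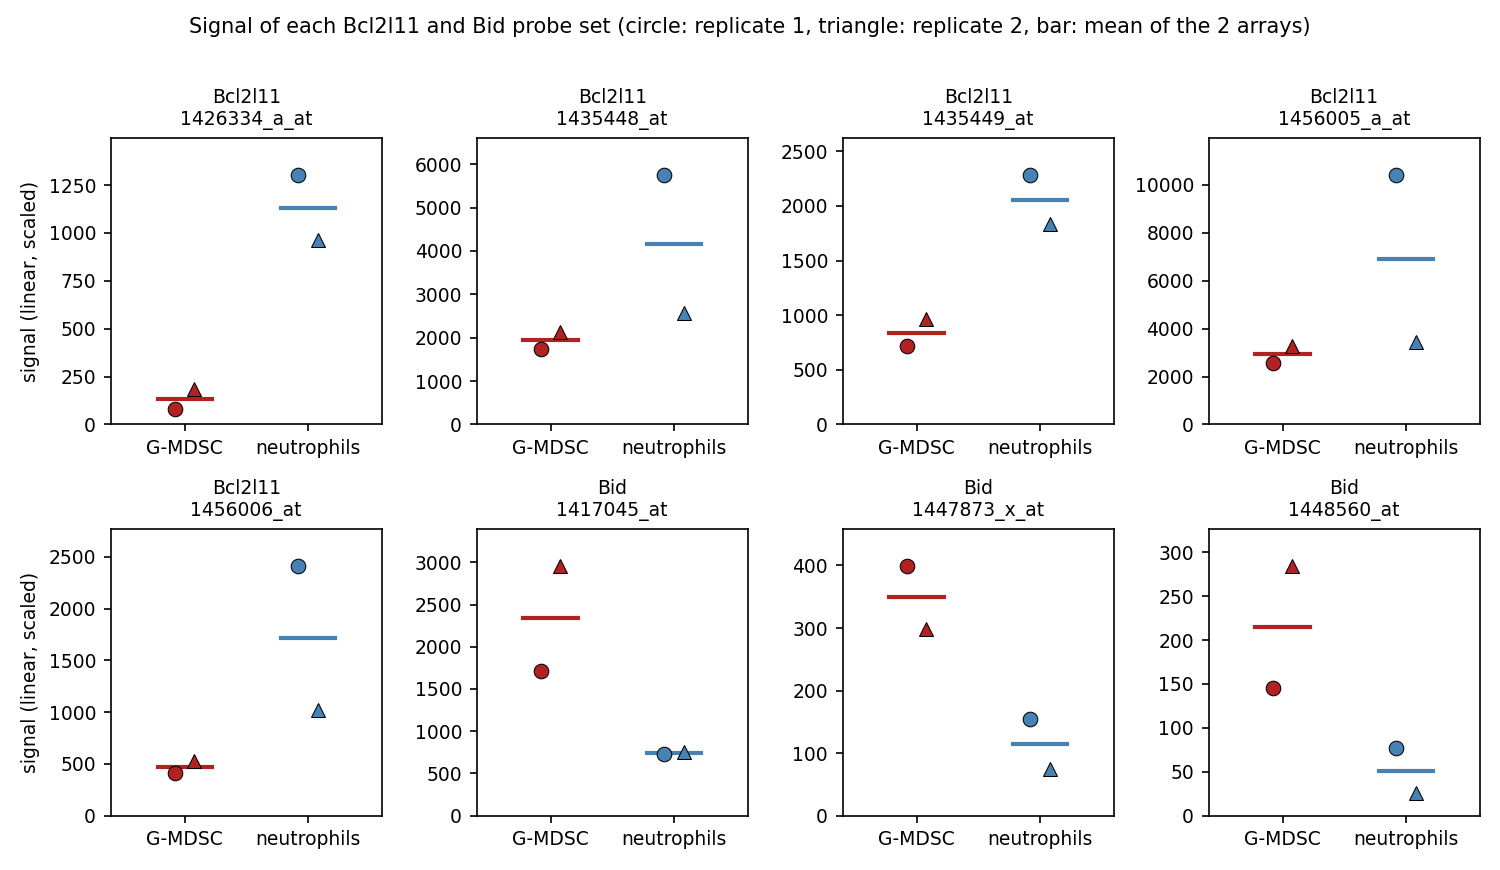
Linear signal (y axis, from 0) of the 5 Bcl2l11 and the 3 Bid probe sets in G-MDSC (red) and neutrophils (blue), with a circle for replicate 1, a triangle for replicate 2 and a bar at the mean of the 2 arrays. Every Bcl2l11 panel has both neutrophil arrays above both G-MDSC arrays, by a wide margin at 1426334_a_at (1302 and 962 against 78.8 and 184) and narrowly at 1456005_a_at, and every Bid panel runs the other way.

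The 2 promoter windows of Bcl2l11 in RefSeq (GRCm38.p6, plus strand) are shown because all 3 probe sets called lower belonged to this gene. The first is chr2:128125788-128126087 and the second chr2:128127325-128127624. Capitals mark GC boxes, CCAAT boxes and a forkhead word, each on either strand.
Bcl2l11 start 1: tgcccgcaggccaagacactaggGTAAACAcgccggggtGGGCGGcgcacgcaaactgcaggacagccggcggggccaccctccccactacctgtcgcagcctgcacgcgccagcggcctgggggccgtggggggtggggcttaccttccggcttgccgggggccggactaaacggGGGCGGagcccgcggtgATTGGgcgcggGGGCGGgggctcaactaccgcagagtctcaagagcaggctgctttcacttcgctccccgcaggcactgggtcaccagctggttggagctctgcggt
Bcl2l11 start 2: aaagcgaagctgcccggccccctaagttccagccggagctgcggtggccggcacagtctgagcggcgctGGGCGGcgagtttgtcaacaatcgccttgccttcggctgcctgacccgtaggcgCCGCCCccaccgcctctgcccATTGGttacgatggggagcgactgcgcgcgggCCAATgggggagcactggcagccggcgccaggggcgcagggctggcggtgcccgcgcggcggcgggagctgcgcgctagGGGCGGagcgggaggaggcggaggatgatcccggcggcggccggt
Each window held 3 GC boxes. The first held 1 CCAAT box and the second 2, and a CCAAT box was found in 37.4% of all windows. The forkhead word, TGTTTAC, occurred in the first window only and was found in 3.65% of all windows, among them 2 of the 15 windows of the family, of Bcl2l11 and Bbc3. The AP-1 word TGANTCA and the CRE word TGACGTCA had no match in the 15 windows and were found in 7.81% and 1.79% of all windows. The E-box CACGTG matched 2 of the 15 (7.15% of all windows) and the NF-kappaB motif 2 (8.46%). A match describes letters only.

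Among the anti-apoptotic members, 0 of 3 were called by limma and 0 had an unadjusted p under 0.05. Mcl1 encodes a short-lived protein on which granulocyte survival depends. At its brightest probe set, 1448503_at, the signal was 26569.6 and 31181 in the G-MDSC arrays and 25687 and 39678 in the neutrophil arrays, and the groups overlapped. The log2 difference was -0.15 ± 0.33 (moderated SE, 2 arrays per group, limma adjusted p = 0.791). Over its 6 probe sets the differences ran from -0.24 to 0.06, with 3 above and 3 below 0, and the groups overlapped at 5 of them. The sign at the brightest probe set turned with quantile normalization (0.10), with median scaling (0.49), with the median of probe sets (0.01) and without neutrophils replicate 2 (0.16).

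Bcl2l1 encodes BCL-XL and, by another splice form, the pro-apoptotic BCL-XS. At 1420888_at its signal was 2650.2 and 3302 in the G-MDSC arrays and 5919 and 3548 in the neutrophil arrays. The groups did not overlap, with G-MDSC lower and replicate 2 of each group close together. On the log2 scale the difference was -0.63 ± 0.34 (moderated SE, 2 arrays per group, limma adjusted p = 0.239). It was -0.997 and called without neutrophils replicate 2 (adjusted p = 0.00892), -0.26 without neutrophils replicate 1, and 0.01 with median scaling. At 1420887_a_at the signal was 341 and 262 in the G-MDSC arrays and 618 and 490.1 in the neutrophil arrays, a difference of -0.85 ± 0.38 (limma adjusted p = 0.224) that was alike in both replicate pairs (-0.83 and -0.86). The third kept probe set, 1426191_a_at, overlapped between groups (72.1 and 149 against 163 and 96.2).

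Bcl2, the founding member, protects lymphocytes and early blood cells. Its brightest probe set, 1457687_at, was at 343 and 289 in the G-MDSC arrays and 424 and 414 in the neutrophil arrays. The neutrophil arrays were close together and above both G-MDSC arrays. The log2 difference was -0.39 ± 0.35 (moderated SE, 2 arrays per group, limma adjusted p = 0.491) and was 0.21 with median scaling. The 5 Bcl2 probe sets had differences from -0.61 to -0.10, all below 0 as deposited, and 3 of them separated the groups. With quantile normalization 2 of the 5 were above 0 (0.36 at 1437122_at and 0.48 at 1440770_at).

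Of the effectors, Bak1 could be measured. It encodes BAK, which resides on the mitochondrial membrane. Its signal at 1418991_at was 1112 and 826 in the G-MDSC arrays and 1484 and 772 in the neutrophil arrays, and each group's spread was wider than the gap between them. On the log2 scale the difference was -0.16 ± 0.38 (moderated SE, 2 arrays per group, limma adjusted p = 0.806). Its sign turned with median scaling (0.47), with the median of probe sets (0.34), without neutrophils replicate 1 (0.31) and without G-MDSC replicate 2 (0.05). Its second probe set, 1425716_s_at, was dim, at 65.6 and 61.7 in the G-MDSC arrays and 57.9 and 10.6 in the neutrophil arrays.

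The remaining BH3-only genes were not called. Bad encodes a BH3-only protein that survival kinases switch off by phosphorylation. Its signal at 1416582_a_at was 1048 and 1155 in the G-MDSC arrays and 879 and 613 in the neutrophil arrays, with both G-MDSC arrays higher. The log2 difference was 0.57 ± 0.33 (moderated SE, 2 arrays per group, limma adjusted p = 0.275), and without neutrophils replicate 1 it was 0.83. Its second probe set, 1416583_at, was at 986 and 1018 in the G-MDSC arrays and 535 and 728 in the neutrophil arrays. It also separated the groups, by 0.67 ± 0.34 (adjusted p = 0.284). The 2 Bad probe sets rest on 1 source sequence, so they are not independent.

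Pmaip1 encodes NOXA, the BH3-only partner of MCL1 that marks it for destruction. Its signal was 4400.0 and 6884 in the G-MDSC arrays and 4220.3 and 3675 in the neutrophil arrays. The lower G-MDSC array lay just above the neutrophils, so the separation was narrow. On the log2 scale the difference was 0.48 ± 0.32 (moderated SE, 2 arrays per group, limma adjusted p = 0.352), made up of 0.06 in the replicate 1 arrays and 0.90 in the replicate 2 arrays. Bbc3 encodes PUMA, a target of p53 and of forkhead factors. Its signal was 444 and 483 in the G-MDSC arrays and 403 and 749 in the neutrophil arrays, and the groups overlapped. The log2 difference was -0.24 ± 0.38 (limma adjusted p = 0.702), with a sign that turned without neutrophils replicate 2 (0.19) and with median scaling (0.38).

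**Figure D3:**
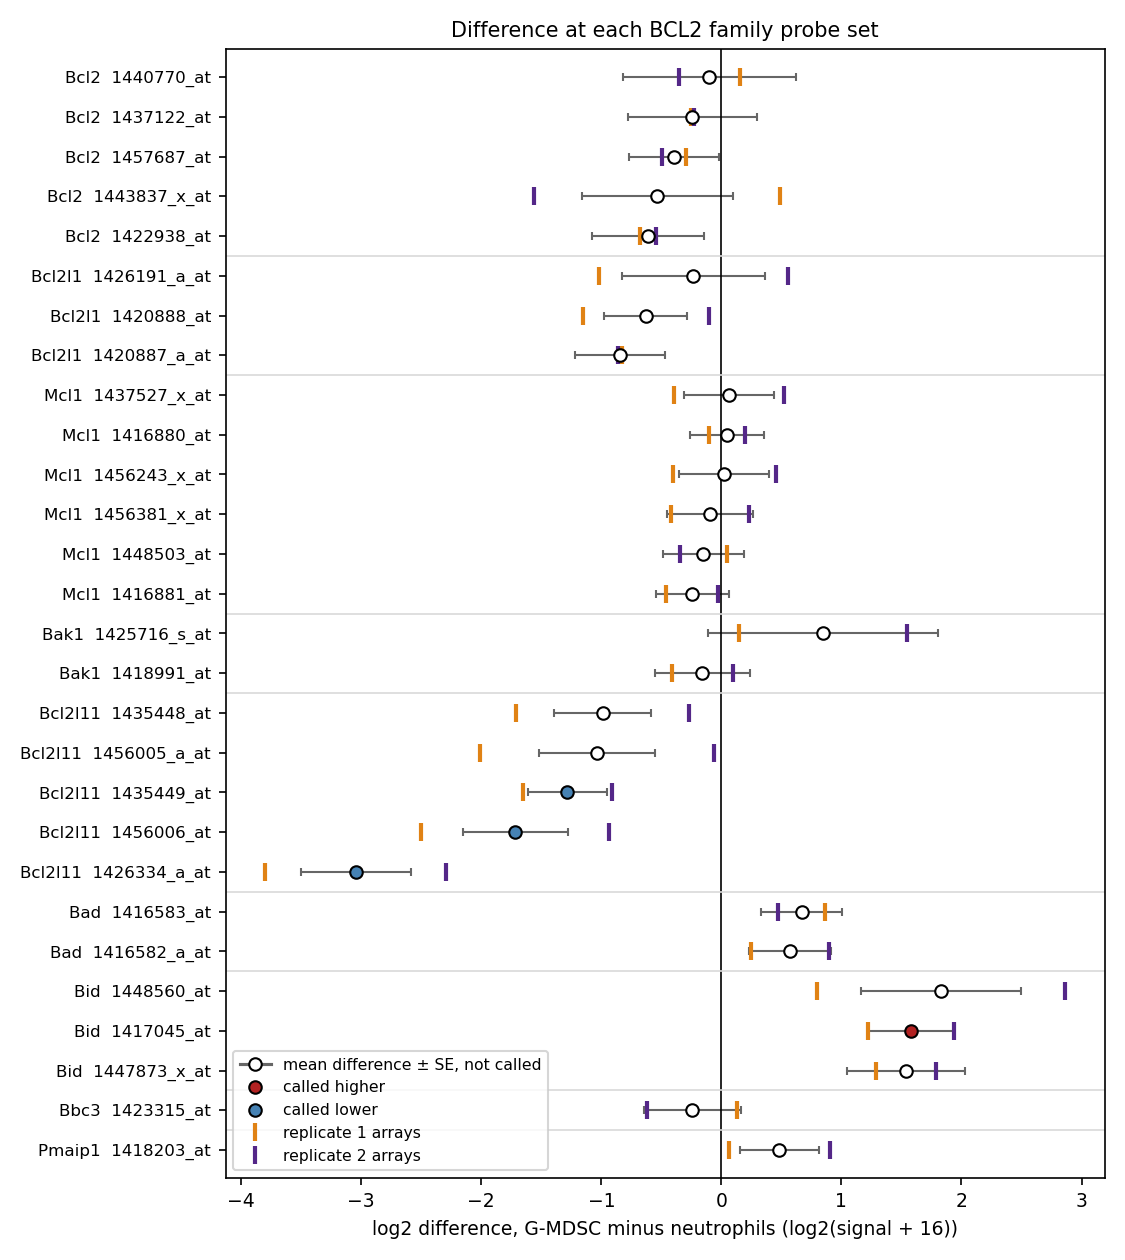
Log2 difference, G-MDSC minus neutrophils (x axis, log2(signal + 16)), at the 28 tested probe sets of the BCL2 family (y axis), as mean ± SE of the limma fit over all kept probe sets, with the differences between the replicate 1 arrays (orange) and the replicate 2 arrays (purple). The 5 Bcl2l11 probe sets lie between -3.04 and -0.99 with 3 called lower, the 3 Bid probe sets between 1.54 and 1.83 with 1 called higher, and the 6 Mcl1 probe sets between -0.24 and 0.06.

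The pattern of Bid over the 4 arrays was closest to those of Auh, Fgd4 and Osgin1. The root mean square distance between log2 values centred on each gene was 0.038, 0.082 and 0.096. These were the smallest of 13139 genes, and with 4 arrays the measure is a description. Auh encodes an RNA-binding enoyl-CoA hydratase, Fgd4 an exchange factor for CDC42 and Osgin1 a protein induced by oxidative stress. Their log2 differences were 1.61, 1.42 and 1.44.

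Other genes of the family and of the pathway were taken from lists. Of 10 other BCL2 family genes tested, 2 were called lower and 0 higher in G-MDSC, by limma and at an unadjusted p under 0.05 alike. The shares of all genes called were 8.05% and 8.3%. Bcl2l2 encodes the anti-apoptotic BCL-W. Its signal was 134 and 109 in the G-MDSC arrays and 577 and 801 in the neutrophil arrays, a log2 difference of -2.35 ± 0.39 (moderated SE, 2 arrays per group, limma adjusted p = 0.00226). With its probe sets summarised by their median it was not called (-1.13, adjusted p = 0.213). Bcl2l14 was dim in both G-MDSC arrays, at 35.3 and 26.8, each under the 40th percentile, and was at 259 and 362 in neutrophils. It passed the filter through the neutrophil arrays alone, where it was high, so its call is a description only. Its level in G-MDSC was at least 4.96-fold lower, or at least 2.17-fold lower with the highest of the 4 percentiles as a common floor (limma adjusted p = 0.00852). The bound sets the mean of the brighter group against, per array, the higher of the percentile and the signal itself. The median difference of these 10 genes was -0.26. With median scaling Bok, an effector-like member named after its values were seen, was also called, as higher (1.89, limma adjusted p = 0.0308). As deposited its signal was 79.3 and 179 in the G-MDSC arrays. In the neutrophil arrays it was 33.7 and 38.6, each under the 40th percentile. With the common floor its fold was 0.917, so no difference above the floor was shown.

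Downstream of the mitochondria, 2 of 11 apoptosome and release genes were called higher and 2 lower, where 8.3% and 8.05% of all genes were. Their median difference was -0.14. Casp6, an executioner caspase, was higher by 2.28 ± 0.36 (moderated SE, 2 arrays per group, limma adjusted p = 0.00176). The Casp6 signal was 1262 and 2029 in the G-MDSC arrays, above the 270.4 and 372 of the neutrophil arrays. Casp9, the initiator caspase of the apoptosome, was higher by 1.43 ± 0.37. Cycs, cytochrome c, differed by -1.46 ± 0.34 and Endog, a mitochondrial nuclease, by -1.83 ± 0.52. The Casp9 call was lost without G-MDSC replicate 1 (adjusted p = 0.198) or 2 (0.182), with quantile normalization (0.0652) and when its probe sets were summarised by their median (0.57, adjusted p = 0.342). The Endog call was lost without G-MDSC replicate 1 (0.142) or 2 (0.343), and the Cycs call without replicate 1 (0.128). With median scaling 0 of the 11 were called lower. Of 5 inhibitor of apoptosis genes, 1 was called higher. This was Birc5, survivin, which is also a gene of dividing cells, at 1.65 ± 0.49, or 0.84 without G-MDSC replicate 1 (adjusted p = 0.69).

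Upstream, 4 of 8 death receptor genes were called lower and 0 higher in limma, with 5 lower and 1 higher at an unadjusted p under 0.05. The shares of all genes called were 8.05% and 8.3%, and 3890 of 13139 had an unadjusted p under 0.05 in limma. The median difference of the 8 was -1.32, against -0.18 for all genes. Fas, the death receptor, was at 653 and 559 in the G-MDSC arrays and 4798 and 2366 in the neutrophil arrays, a log2 difference of -2.45 ± 0.37 (moderated SE, 2 arrays per group, limma adjusted p = 0.00144). Cflar, the inhibitor c-FLIP that competes with caspase 8, differed by -1.98 ± 0.36. Casp8, the protease that cleaves BID, was at 1624 and 1984 in the G-MDSC arrays and 4531 and 4097 in the neutrophil arrays, a difference of -1.26 ± 0.30. Tnfrsf1b, a receptor of TNF, differed by -1.39 ± 0.32. Bid was higher in the arrays in which Fas and Casp8 were lower, which with 2 groups that do not overlap follows from the calls. A link between these genes was not tested. Without G-MDSC replicate 1 the calls of Casp8 (adjusted p = 0.194) and Tnfrsf1b (0.198) were lost, and without G-MDSC replicate 2 that of Casp8 (0.0667). With median scaling 1 of the 8 was called lower, the death ligand Tnfsf10 (-1.70, adjusted p = 0.00999), named after its values were seen. Fas (-1.82, adjusted p = 0.182), Cflar (-1.35, 0.387), Casp8 (-0.62, 0.735) and Tnfrsf1b (-0.75, 0.62) were not among the calls.

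Genes of the p53 axis, which can induce Bbc3, Pmaip1 and Bax, were called in both directions, 2 of 11 higher and 2 lower. The shares of all genes were 8.3% and 8.05%, and the median difference of the 11 was 0.20. Trp53inp1, a p53-induced nuclear protein, was at 18744 and 17213 in the G-MDSC arrays and 3991 and 1346 in the neutrophil arrays. It was higher by 2.94 ± 0.44 (moderated SE, 2 arrays per group, limma adjusted p = 0.00131), or by 1.93 with the median of its probe sets. Sesn1 was higher by 1.52 ± 0.33. Cdkn1a, the cell cycle inhibitor p21, was lower, at -2.15 ± 0.33, and Aen, an apoptosis-enhancing nuclease, at -1.59 ± 0.39. The Sesn1 and Aen calls were lost without G-MDSC replicate 1 (adjusted p = 0.184 and 0.139) or 2 (0.0538 and 0.084). With median scaling 0 of the 11 were called lower, with Cdkn1a at -1.51 (adjusted p = 0.316).

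Of 24 upstream regulators of the family, 4 were called higher and 2 lower, where 8.3% and 8.05% of all genes were. Their median difference was -0.03. The transcription factors Foxo3 and Foxo4, which can induce Bcl2l11 and Bbc3, were higher by 1.28 ± 0.38 and 1.86 ± 0.56 (moderated SE, 2 arrays per group, limma adjusted p = 0.0409 and 0.0446). Ddit3, the stress factor CHOP, was higher by 1.47 ± 0.36 and Tsc22d3, the glucocorticoid-induced GILZ, by 1.18 ± 0.32. Pim2, a survival kinase that phosphorylates BAD, was lower (-1.69 ± 0.36), as was the 14-3-3 gene Ywhaq (-1.10 ± 0.31). Without G-MDSC replicate 2, 0 of these 6 were called, with adjusted p from 0.082 for Foxo3 to 0.322 for Ddit3. Without G-MDSC replicate 1, 4 were not called, namely Foxo3 (0.195), Foxo4 (0.202), Tsc22d3 (0.135) and Ywhaq (0.162). With median scaling 1 of the 24 was called higher, Foxo4, and 0 lower. Without neutrophils replicate 2, Foxo3 and Foxo4 were at 0.73 and 0.90 and not called (adjusted p = 0.0813 and 0.0534), and without neutrophils replicate 1 Foxo4 was at 2.82. With the median of probe sets in place of the brightest, Foxo4 was at 0.51 (adjusted p = 0.525).

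**Figure D4:**
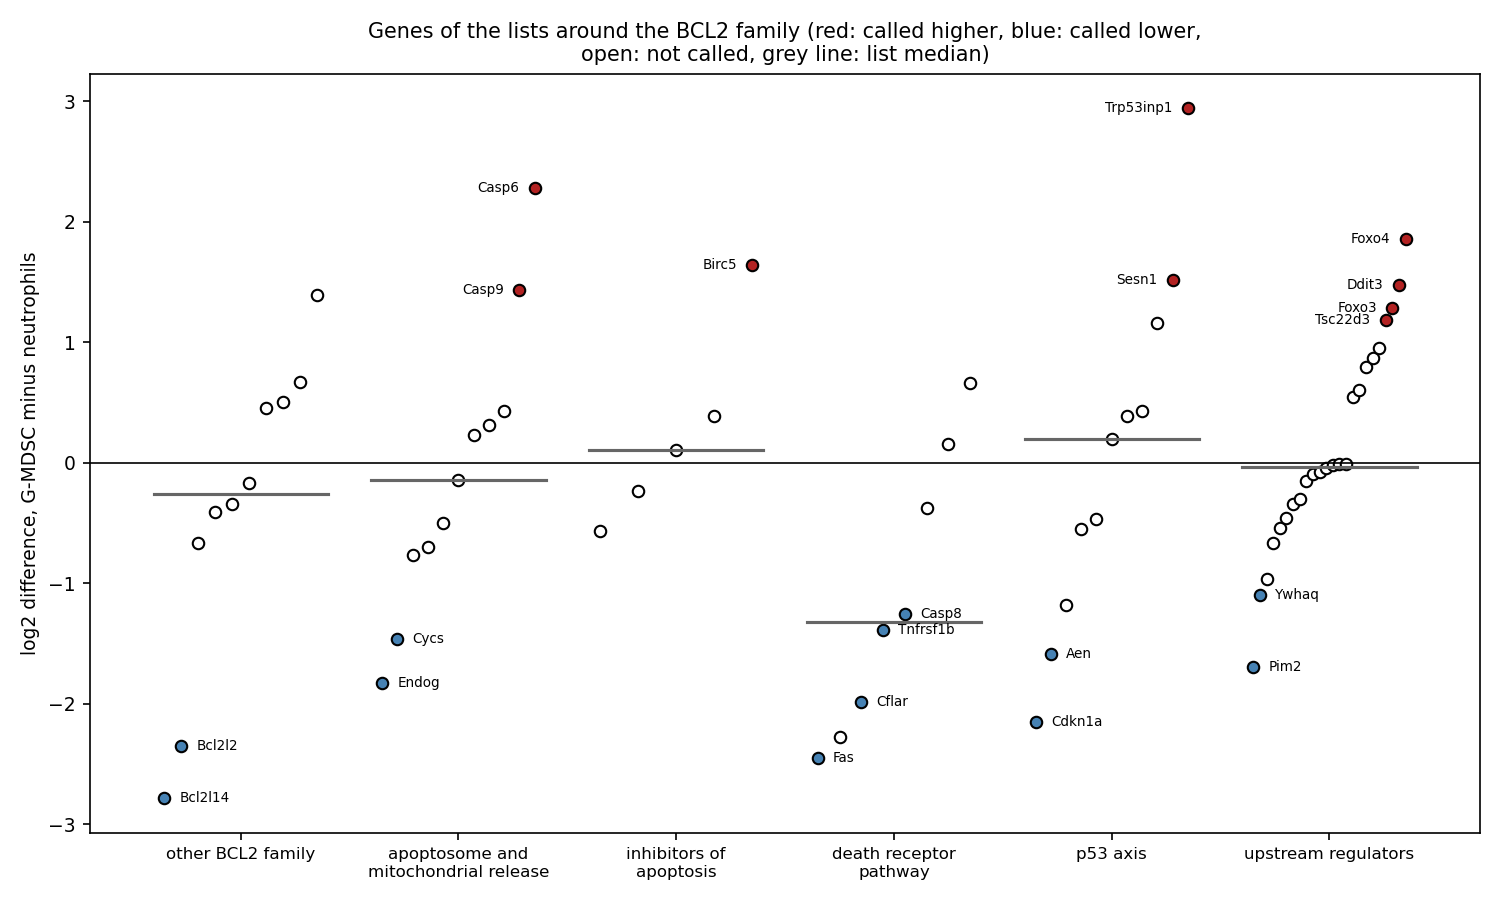
Log2 difference, G-MDSC minus neutrophils (y axis), of each tested gene in 6 lists around the BCL2 family (x axis), filled red where called higher, blue where called lower and open where not called, with a grey line at the list median. The death receptor list has the lowest median (-1.32, with 4 of 8 genes called lower as deposited and 1 with median scaling), while the other 5 medians lie between -0.26 and 0.20.

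Markers of other cell types also differed between the groups, and of all genes 8.3% were called higher in G-MDSC and 8.05% lower. Among 14 markers of macrophages, 10 were called lower and 0 higher in G-MDSC, with summed signals of 18938 and 18517 in the G-MDSC arrays and 45883 and 68044 in the neutrophil arrays. The largest log2 differences were those of Msr1 (-5.89), Marco (-5.36) and Maf (-3.74). Csf1r, not called, was the brightest, at 11012 and 11272 in the G-MDSC arrays and 16081 and 17388 in the neutrophil arrays. Among 10 markers of mast cells and basophils, 5 were lower and 1 was higher (Mcpt8), with sums of 20034.5 and 22583 against 41147 and 30863. Cma1, Mcpt4 and Tpsb2 lay at or below the 40th percentile in both G-MDSC arrays, and Mcpt8 in both neutrophil arrays. Each passed the filter through the other group alone. With the common floor the gaps were at least 18.1-fold, 7.89-fold, 4.41-fold and 4.53-fold. Hdc, not called, was the brightest, at 15256 and 18052 in the G-MDSC arrays and 24350 and 24016 in the neutrophil arrays. Kit, also not called, ran the other way, by 1.62 (limma adjusted p = 0.0531). Its signal was 2003 and 3146 in the G-MDSC arrays and 1551 and 417 in the neutrophil arrays. Of 13 markers of granulocyte precursors and dividing cells, 10 were higher and 0 lower, with sums of 104261 and 78344 against 7791 and 4332. Mpo (5.12), Camp (5.10) and Elane (4.74) had the largest log2 differences. Of 11 B and plasma cell markers 1 was higher (Jchain) and 2 lower (Sdc1 and Pou2af1), of 10 T and NK cell markers 1 was higher (Nkg7) and 1 lower (Cd2), and of 6 erythroid markers 0 were called by limma, with 0 at an unadjusted p under 0.05. The calls lost without G-MDSC replicate 1 were Mcpt8 (2.65, adjusted p = 0.237), Nkg7 (1.38, 0.467), Cd2 (-1.64, 0.11) and Pou2af1 (-1.14, 0.197). Those lost without G-MDSC replicate 2 were Cd2 (-1.85, 0.0517), Sdc1 (-1.67, 0.196) and Pou2af1 (-1.14, 0.202). With 1 array left out, the T and NK cell markers had 0 to 2 called higher and 0 to 3 lower, and the B and plasma cell markers 0 to 2 lower. The sums of the B and plasma cell markers were 20491 and 15810.0 in the G-MDSC arrays, against 12592 and 15288 in the neutrophil arrays. The higher G-MDSC sums rest on Jchain alone, at 8912 and 4232 against 310 and 215. The sums of the T and NK cell markers were 1702 and 999 against 1659 and 1761, and those of the erythroid markers 2182 and 2070.1 against 1914 and 2734. No tested marker was listed at 0. Without neutrophils replicate 2 the macrophage count was 10 lower and the precursor count 12 higher, and with median scaling 4 macrophage markers were called lower. The part of these cells in the differences of Bid, Bcl2l11 and the other members was not tested.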

How the data were processed

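Total RNA, 100 ng per sample, was labelled and measured on 1 array per sample, per the labels' protocols. The intensity values deposited by the authors are linear signals. Per the submitters' processing notes, the tools were GCOS 1.4 and MAS5. The mean signal with 2% of probe sets trimmed at each end was 500.0 in each array. Arrays have no read depth, and 2 per group limit the precision. The members and lists were chosen with earlier results of these data known.

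Of 45101 probe sets, 64 were controls, 34945 had 1 gene symbol, 932 several and 9160 none in the platform annotation, and 34741 matched RefSeq (GRCm38.p6) by gene ID. Sequences are RefSeq's, and 9 of 10 members had a window used here, all but Pmaip1. Its chromosome was left out of the windows of the family. Where several probe sets of a gene passed the filter, the one with the highest mean stood for the gene. R 4.3.3, limma 3.58.1 (lmFit, eBayes with intensity trend, two-sided, tested on simulated data), Python 3.11.15, pandas 2.3.3, numpy 2.4.6 and matplotlib 3.10.9 were used. An exact permutation test of 2 against 2 cannot give p below 0.333, so none was used. Genes named from lists are up to 4 called per direction, and cell type markers up to 3, by size of difference. Hdc and Csf1r were named for their brightness, and Kit for its direction, after their values were seen. Bounds for dim signals were chosen after seeing the data. Alternatives were pseudocounts 1 and 64, a floor, other filters, scalings, variance models and probe set choices, the replicate block, and leaving out each array.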

Additional observations from a re-analysis of the deposited data

How the results depend on the processing

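As deposited, 1 member gene was called higher and 0 lower. The count of 1 higher became 0 with median scaling, without the intensity trend and without moderation, and ran from 0 to 2 with 1 array left out. The count of 0 lower became 1 with the median of kept probe sets (Bcl2l11) and 1 with the replicate block, and ran from 0 to 2 with 1 array left out. Of probe sets, 1 was called higher, which became 0 with quantile normalization, without the trend and without moderation, 2 with median scaling and 3 with the replicate block, and ran from 0 to 3 with 1 array left out. The 3 called lower became 2 without a filter and 2 with a filter set at the 60th percentile, where 1456006_at was not called (adjusted p = 0.0562 and 0.0504), 1 with pseudocount 64, 1 with quantile normalization, 1 with median scaling, 0 without the trend, 0 without moderation and 5 with the replicate block, and ran from 1 to 5 with 1 array left out. The 2 probe sets called higher with median scaling did not include 1417045_at of Bid (limma adjusted p = 0.158) but did include 1447873_x_at of Bid (0.0357). The cause of these moves was not tested.

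The sign turned with median scaling for Bcl2 (0.21), Bcl2l1 (0.0052), Mcl1 (0.49), Bak1 (0.47), Bbc3 (0.38) and the transferrin receptor Tfrc (0.45). It turned with quantile normalization for Mcl1 (0.10) and with the median of probe sets for Mcl1 (0.010) and Bak1 (0.34). With 1 array left out, Mcl1 ran from -0.46 to 0.16, Bak1 from -0.62 to 0.31 and Bbc3 from -0.67 to 0.19. Among single probe sets, it turned with median scaling at 1437122_at (0.31), 1440770_at (0.41), 1443837_x_at (0.032) and 1457687_at (0.21) of Bcl2 and at 1420888_at (0.0052) and 1426191_a_at (0.30) of Bcl2l1. With quantile normalization it turned at 1437122_at (0.36), 1440770_at (0.48) and 1426191_a_at (0.45). With 1 array left out, 1440770_at ran from -0.89 to 0.69, 1443837_x_at from -1.19 to 0.12 and 1426191_a_at from -0.68 to 0.22. Bid, Bcl2l11, Bad and Pmaip1 kept their sign in every alternative run.

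The labels do not say what a replicate number shares. Deviations of same-numbered arrays from their group means correlated at 0.24 over 13139 genes. With the replicate number as a block, Bid (adjusted p = 2.25e-05) and Bcl2l11 (0.00357) were called, and 1699 genes were higher and 1607 lower. With 1 array left out, 429 to 2419 genes were called higher and 561 to 3472 lower, and without the intensity trend 148 and 331. Without moderation 0 of all genes were called in limma (2379 had an unadjusted p under 0.05). A fit without 1 array assumes that the lone array varies like the other group. The alternatives with a floor, pseudocount 1, no filter and the filter at the 60th percentile left the counts of member genes at 1 and 0.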
